A study of Mus musculus with 6 samples.

Results

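The regions described here are the 12572 fibroblast peaks of 5-hydroxymethylcytosine (5hmC) that had no overlapping 5hmC peak at either later stage of reprogramming. They make up 29.7% of the 42301 peaks of the fibroblast 5hmC list. A member is a peak of that list that shares not even 1 bp with a peak of the day-3 5hmC list or of the iPS 5hmC list, and such peaks are called lost below. The word refers to the peak lists only, since a weak 5hmC signal that stays under the peak caller's threshold also leaves no peak. The members were thus selected on the positions of the 5hmC peaks at all 3 stages, so the members' lack of later 5hmC is not a result. The 3 lists of 5-methylcytosine (5mC) peaks were not used in the choice.

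Genomic DNA was precipitated with a polyclonal antibody against 5hmC or a monoclonal antibody against 5mC and sequenced, with 1 library per stage and mark. All cells carried the OG2-GFP/Rosa26-M2rtTA background, that is, a green fluorescent reporter of Oct4 and a transactivator that responds to doxycycline. The fibroblasts, at passage 4, came from mice made with iPS cells that had been induced by Tet1, Sox2, Klf4 and c-Myc (TSKM). The day-3 cells were such fibroblasts after 3 days of doxycycline, with a change from feeder medium to ES medium at the same time. The iPS cells were 1 line from this secondary system at passage 10 to 15. They grew with LIF on mitomycin-treated embryonic fibroblasts, and how many of those feeder cells were left in the sample is not stated. Feeder fibroblasts, culture medium, passage and stage cannot be told apart in these libraries. In DNA from a whole culture, a mark carried by fewer cells and a weaker mark in every cell cannot be told apart either.

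Cytosine methylation in mammals is laid down mainly at CpG sites by DNA methyltransferases. Tet enzymes, of which Tet1 is one, oxidise 5mC to 5hmC and further, so 5hmC arises only where 5mC was present on that molecule. 5hmC is an intermediate in active demethylation, and it is also diluted when DNA is replicated, because the maintenance methyltransferase acts poorly on it. In differentiated cells it is found mostly in gene bodies and at enhancers, and in pluripotent cells it is abundant. Which cytosine of a fragment carries a mark cannot be read from a precipitation.

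Among the other 29729 fibroblast 5hmC peaks, 14540 were absent at day 3 and present in iPS cells, 2800 were present at day 3 and absent in iPS cells, and 12389 were present at both later stages. The distance of lost peaks to later 5hmC is what the rule selects on, so it describes the members only. The nearest later 5hmC peak of either list lay at a median distance of 3.87 kb. It lay within 100 bp of 295 lost peaks (2.35%), within 1 kb of 2727 (21.7%) and within 50 kb of 11351 (90.3%). On the other side of the rule, 251 of the other peaks (0.844%) were kept by an overlap of at most 100 bp. The 295 peaks just inside the rule and the 251 just outside it had median scores of 66.53 and 67.44 and median widths of 761 and 767 bp. Their shares on fibroblast 5mC were 20.3% and 26.3%, on day-3 5mC 33.2% and 37.1%, and on iPS 5mC 20.0% and 25.9%. The number of lost peaks depends on how long the later 5hmC lists are, which hold 116087 peaks at day 3 and 174079 in iPS cells. Against the 42301 best-scoring peaks of each later 5hmC list, 30011 fibroblast peaks were without a counterpart.

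Lost peaks had less company of 5mC than the other fibroblast 5hmC peaks at every stage. On fibroblast 5mC lay 1341 lost peaks, or 10.7% (95% Wilson interval 10.1 to 11.2), where 27.2% of the whole fibroblast 5hmC list did. On day-3 5mC lay 2363, or 18.8% (18.1 to 19.5), where 41.4% of the whole list did. On iPS 5mC lay 1455, or 11.6% (11.0 to 12.1), where 24.7% of the whole list did. These intervals reflect the counting of peaks alone. Peaks close to each other share their DNA fragments and variation from culture to culture was not recorded, so no p-value is given anywhere.

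Set against the other 29729 peaks, the difference was -23.5 points on fibroblast 5mC (95% Newcombe interval -24.2 to -22.7), from 34.1% of the other peaks. On day-3 5mC it was -32.2 points (-33.1 to -31.3), from 51.0%, and on iPS 5mC -18.7 points (-19.4 to -17.9), from 30.2%. Lost peaks were thus on 5mC 0.313, 0.368 and 0.383 times as often at the 3 stages. These differences kept their sign under the other scores, overlaps and list lengths tried and with autosomes only. On chromosome X alone the difference on fibroblast 5mC was 3.56 points, with an interval that includes 0 (-6.75 to 13.8). The size of the differences in points did change, as stricter 5mC lists lowered the shares of lost and other peaks alike. With 5mC peaks of a score of at least 100, the difference on fibroblast 5mC was -15.2 points (3.39% against 18.5%). On iPS 5mC it was -10.2 points (2.64% against 12.9%). With 5mC lists of equal length, the difference on day-3 5mC was -20.7 points (4.42% against 25.1%). In proportion, lost peaks were in these cases no closer to the other peaks than in the full lists.

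The order of the 3 stages was less firm than the gap to the other peaks. The full 5mC lists differ in length, with 104011 fibroblast, 165869 day-3 and 61171 iPS peaks. When each 5mC list was limited to its 61171 top scorers, 5.19% of the lost peaks lay on fibroblast, 4.42% on day-3 and 11.6% on iPS 5mC, so that day 3 was the lowest stage and not the highest. With a 5mC score of at least 100 the shares were 3.39%, 7.97% and 2.64%, and iPS cells were lowest. A rise or fall of 5mC at lost peaks between stages can therefore not be read from the lists.

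**Figure D1:**
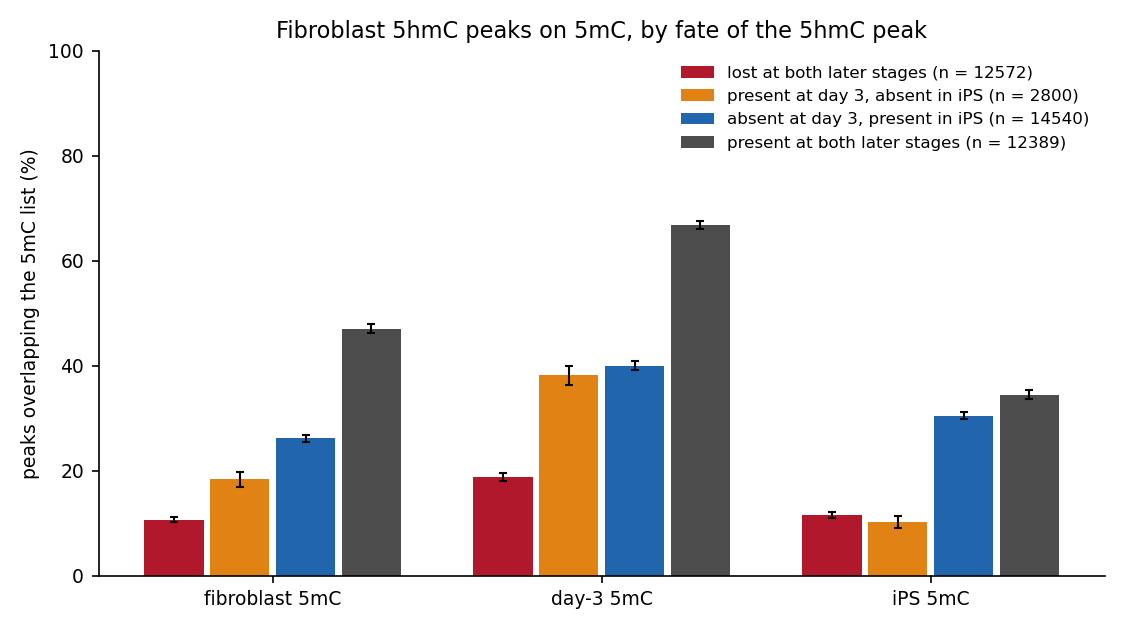
Share of fibroblast 5hmC peaks (y axis, %) that overlap a peak of each 5mC list (x axis), by fate of the peak in the later 5hmC lists, with 95% Wilson intervals for counting error. Lost peaks have the lowest share on fibroblast and day-3 5mC (10.7% and 18.8%), while on iPS 5mC the peaks present at day 3 and absent in iPS cells are at 10.2% and the lost peaks at 11.6%.

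The share on 5mC varied with the fate of the 5hmC peak. On fibroblast 5mC, the difference to the peaks kept at day 3 only, of which 18.4% lay there, was -7.69 points (-9.26 to -6.19). Peaks found again in iPS cells only were on fibroblast 5mC in 26.2% of cases and those present at both later stages in 47.0%. On day-3 5mC the same 3 fates reached 38.2%, 40.0% and 66.8%. On iPS 5mC the picture was another: lost peaks (11.6%) and peaks kept at day 3 only (10.2%) were close, with a difference of 1.36 points (0.0612 to 2.57). Peaks with iPS 5hmC, with or without day-3 5hmC, lay on iPS 5mC in 34.5% and 30.5% of cases. So the 2 fates without iPS 5hmC had the lower shares on iPS 5mC as well.

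Across the 3 5mC lists together, 9330 lost peaks, or 74.2% (73.4 to 75.0), lay on no 5mC peak at any stage. In the whole fibroblast 5hmC list 50.1% did, and among the other peaks 39.9% did. At these 5hmC peaks the 5mC antibody gave no peak before, during or after induction. The opposite case, a 5mC peak in all 3 lists, held for 501 lost peaks, or 3.99% (3.66 to 4.34), against 13.9% of the whole list and 18.1% of the other peaks. Between these extremes, 1046 lost peaks were on 5mC at day 3 only (8.32%), 572 in iPS cells only (4.55%) and 208 in fibroblasts only (1.65%). A further 533 were on fibroblast and day-3 5mC (4.24%), 283 on day-3 and iPS 5mC (2.25%), and 99 on fibroblast and iPS but not day-3 5mC (0.787%). Fibroblast-only 5mC was about as frequent among the other peaks (1.74%) as among the lost ones.

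Read the other way, the share of fibroblast 5hmC peaks that were lost went from 44.0% (43.4 to 44.7) of the 21193 peaks on no 5mC list to 8.50% (7.82 to 9.24) of the 5891 peaks on all 3. Peaks on 1 list lay between, with 28.7% lost for fibroblast 5mC alone, 23.8% for iPS 5mC alone and 19.0% for day-3 5mC alone. Of the peaks on fibroblast and day-3 5mC, 12.0% were lost.

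**Figure D2:**
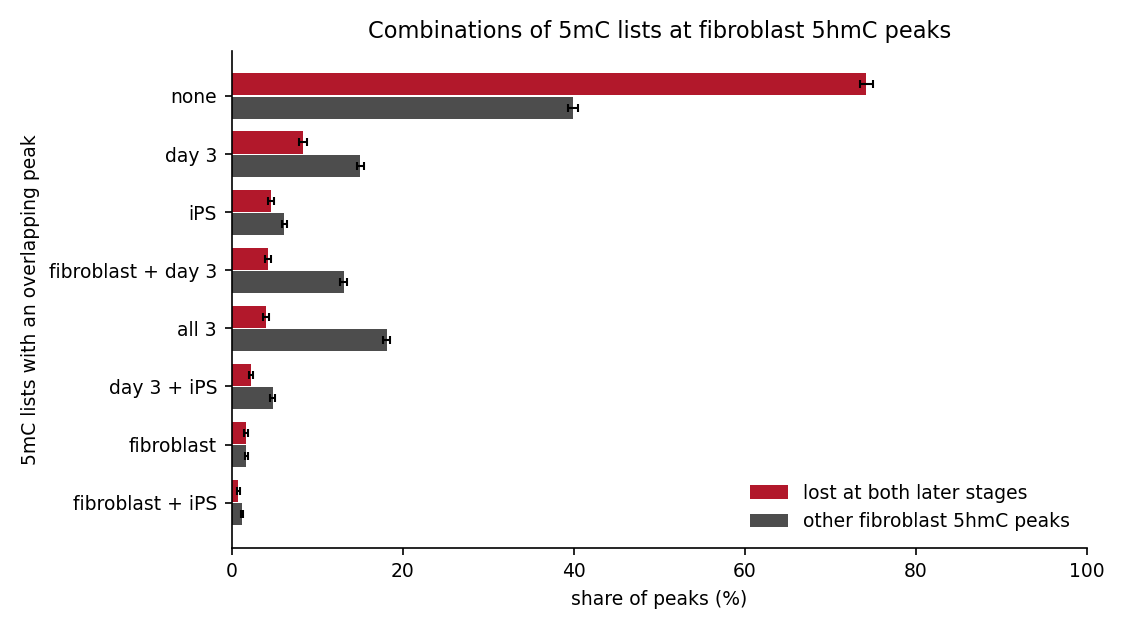
Share of peaks (x axis, %) with each combination of overlapping 5mC lists (y axis), for lost peaks and for the other fibroblast 5hmC peaks, with 95% Wilson intervals for counting error. Lost peaks are mostly on no 5mC list (74.2% against 39.9%) and are on all 3 lists in 3.99% of cases against 18.1%.

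Where a lost peak did lie on 5mC in fibroblasts, that 5mC was listed less often afterwards than at the other peaks as a whole. Of the 1341 such lost peaks, 1034 were on 5mC at day 3, or 77.1% (74.8 to 79.3), where 89.8% of all fibroblast 5hmC peaks on fibroblast 5mC were and 91.5% of the other ones (90.9 to 92.0). In iPS cells 600 of them were on 5mC, or 44.7% (42.1 to 47.4), where 55.2% of all and 56.5% of the other ones were. Peaks kept at day 3 only were lower still in iPS cells, with 34.4% (30.5 to 38.6) on 5mC, and higher at day 3, with 88.3% (85.3 to 90.8). The fibroblast 5mC peaks under lost 5hmC peaks had a lower median score, 78.34 against 106.7 under the other peaks and 90.36 in the whole list. With fibroblast 5mC scores of at least 100, 86.3% of 422 lost peaks (82.6 to 89.2) and 97.5% of 5453 other peaks were on 5mC at day 3. In iPS cells these peaks were on 5mC in 60.7% (55.9 to 65.2) and 67.6% of cases. Under a score of 100 the day-3 shares were 72.9% and 84.5%.

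5mC that was absent in fibroblasts was also listed later at fewer lost peaks than other peaks as a whole. Of the 11231 lost peaks off fibroblast 5mC, 1329 were on 5mC at day 3, or 11.8% (11.2 to 12.4), where 23.4% of all fibroblast 5hmC peaks off fibroblast 5mC were and 30.1% of the other ones. In iPS cells 855 of them were on 5mC, or 7.61% (7.14 to 8.12), where 13.3% of all and 16.6% of the other ones were. From day 3 to iPS cells, 5mC was listed again at 33.2% of the 2363 lost peaks on day-3 5mC (31.3 to 35.1), where 43.3% of all and 21.1% of those kept at day 3 only were (18.8 to 23.7). It appeared at 6.57% of the 10209 lost peaks off day-3 5mC (6.11 to 7.07), where 11.5% of all did. Peaks kept at day 3 only went below the lost peaks in iPS cells. Off fibroblast 5mC, 4.77% of them (3.97 to 5.72) were on iPS 5mC, and off day-3 5mC 3.47% (2.70 to 4.44).

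Where lost peaks lay on 5mC, the overlap was about as broad as at the other peaks. The median covered part of the lost peak was 85.7% under fibroblast 5mC, 84.8% under day-3 5mC and 89.2% under iPS 5mC, against 86.4%, 87.2% and 86.7% of the other peaks. The centres of both peaks were a median of 146.5, 130.5 and 90.5 bp apart. At the other fibroblast 5hmC peaks these distances were 178.5, 158 and 112.5 bp. Requiring an overlap of at least 50% of the fibroblast peak for every list gave 13826 lost peaks, with 9.28%, 16.4% and 11.3% on the 3 5mC lists.

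The surroundings of lost peaks were poor in 5mC peaks, and the peak itself stood out from them less than at the other peaks as a whole. The centres of lost peaks lay in fibroblast 5mC peaks in 8.73% of cases, and positions 5 kb away in 5.96%, a ratio of 1.47. At the other fibroblast 5hmC peaks they covered 29.2% and 10.6%, a ratio of 2.75. For day-3 5mC the ratio was 1.83 at lost peaks (15.9% and 8.69%) and 2.94 at the other peaks. For iPS 5mC it was 3.10 at lost peaks (10.7% and 3.44%) and 4.77 at the other peaks. At peaks kept at day 3 only the ratios were 1.73, 2.54 and 1.92, so that on iPS 5mC the lost peaks stood out more than these. Directly beside lost peaks 5mC was thinner than farther out. At 1 kb from the centre, fibroblast 5mC covered 4.66% of positions, day-3 5mC 7.25% and iPS 5mC 2.62%, each below its value at 5 kb. At the other peaks the 1-kb values of 11.5%, 16.4% and 6.17% were each above those at 5 kb. The dip was not particular to lost peaks, since peaks kept at day 3 only had it as well. There fibroblast 5mC covered 7.23% of positions at 1 kb and 8.91% at 5 kb, day-3 5mC 12.1% and 13.5%, and iPS 5mC 3.05% and 4.71%.

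**Figure D3:**
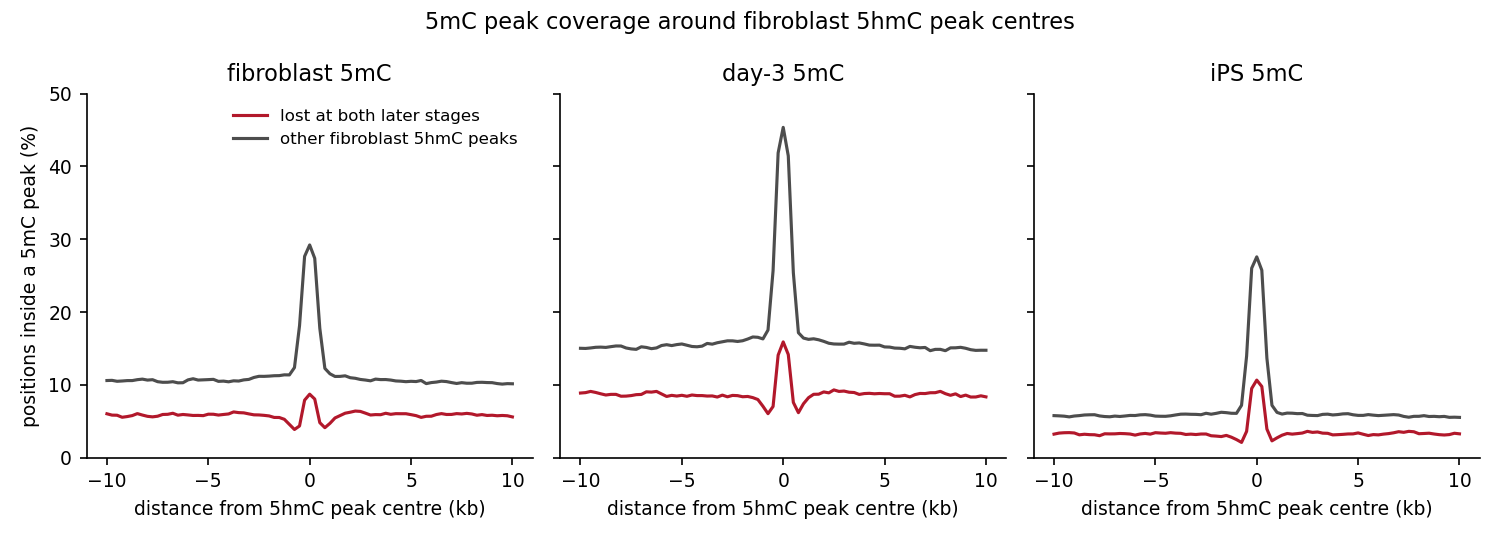
Share of positions inside a 5mC peak (y axis, %) by distance from the centre of fibroblast 5hmC peaks (x axis, kb), in steps of 250 bp, for lost and other peaks. The lost peaks have a low central summit (8.73%, 15.9% and 10.7%) with a dip on both sides, and the other peaks as a whole have higher summits (29.2%, 45.4% and 27.6%) without the dip, although those kept at day 3 only have it too.

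From 2 to 50 kb on both sides of the centre, fibroblast 5mC covered a median of 3.56 kb around lost peaks and 7.91 kb around the other peaks. For day-3 5mC the medians were 5.90 and 12.2 kb, and for iPS 5mC 1.75 and 4.05 kb. In that stretch no fibroblast 5mC at all was found around 20.3% of the lost peaks and 7.60% of the other peaks. When the fibroblast 5hmC peaks were cut into 10 equal groups by surrounding fibroblast 5mC, 53.6% of the group with the least were lost (52.1 to 55.1), and 13.7% of the group with the most (12.7 to 14.8). Within the latter group 24.3% of the lost and 58.0% of the other peaks lay on fibroblast 5mC. When the other peaks were weighted to the lost peaks' surrounding 5mC, the differences were -16.1 points on fibroblast 5mC, -23.9 on day-3 5mC and -13.6 on iPS 5mC. Lost peaks were therefore less often on 5mC than other peaks with as much 5mC around them.

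Later 5hmC peaks were also sparse around lost peaks, which the rule itself favours. How far from the peak this effect of the rule reaches was not tested. From 2 to 50 kb, day-3 5hmC covered a median of 3.04 kb around lost peaks and 7.33 kb around the other peaks, and iPS 5hmC 5.35 and 14.3 kb. Fibroblast 5hmC covered 1.56 and 2.35 kb. Lost peaks thus lay in stretches with less cover by fibroblast 5hmC peaks, as by the 5mC peaks above. The thin cover by the later 5hmC lists is not a separate result.

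Lost peaks were on the whole weaker and narrower than the other fibroblast 5hmC peaks. The score is the peak caller's value, is bounded below at 50.01 in this list, and describes peaks within a list only. Scores of lost peaks ran from 50.01 to 1199.15 with a median of 67.295, against a median of 101.91 for the other peaks. Scores under 60 were held by 34.1% of the lost and 14.6% of the other peaks, and scores of at least 100 by 2106 lost peaks (16.8%), where 40.9% of the whole list reached that. Widths of lost peaks ran from 228 to 4812 bp with a median of 738 bp, against 852 bp for the other peaks. Peaks kept at day 3 only were nearer to the lost ones, with a median score of 75.08 and a median width of 784 bp. With the whole list cut into 5 equal groups by score, the share of lost peaks was 49.7% in the lowest group, 42.0%, 33.1% and 19.4% in the next, and 4.29% in the highest.

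The low share on 5mC was not limited to the weak peaks. In the lowest score group, 8.53% of the lost peaks (7.72 to 9.41) and 32.5% of the other peaks lay on fibroblast 5mC, and in the highest group 23.1% (19.1 to 27.7) and 43.3%. On day-3 5mC the lost peaks went from 17.1% to 28.4% between these groups, and the other peaks from 48.5% to 60.3%. On iPS 5mC the lost peaks went from 7.98% to 30.0% and the other peaks from 20.9% to 46.9%. With the other peaks weighted to the lost peaks' scores and widths, the differences were -19.8 points on fibroblast 5mC, -28.3 on day-3 5mC and -11.0 on iPS 5mC. The last of these is smaller than the unweighted -18.7 points by more than 1.5 times. Weighted over score, width and surrounding 5mC together, the differences were -13.3, -20.1 and -6.84 points (interval of the last -7.59 to -6.08).

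**Figure D4:**
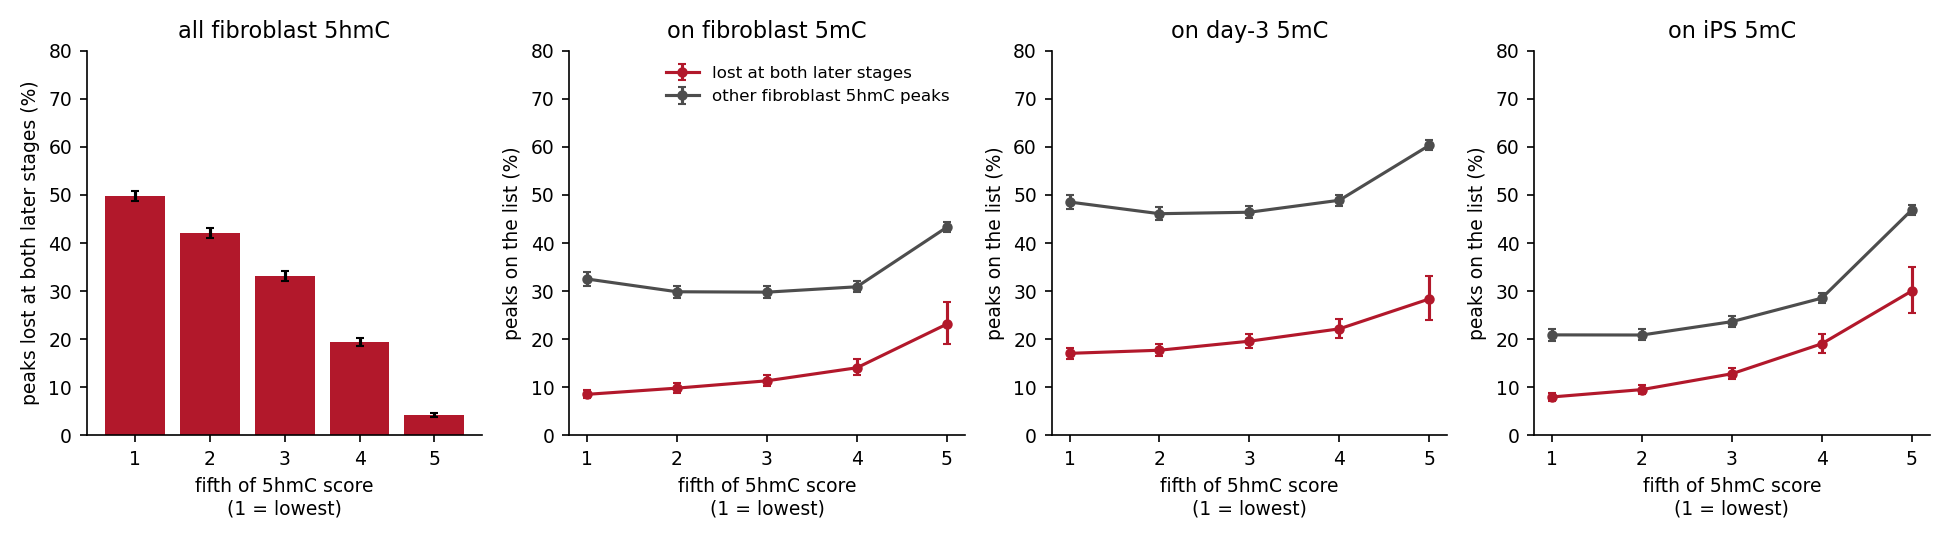
Left, share of fibroblast 5hmC peaks that were lost (y axis, %) in 5 equal groups by 5hmC score (x axis, 1 is the lowest). The other panels give the share on each 5mC list for lost and other peaks in the same groups, with 95% Wilson intervals for counting error. Loss falls from 49.7% to 4.29%, and lost peaks stay below the other peaks in each group of each panel.

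Lost peaks occurred on all 19 autosomes, where 25.1% (chromosome 11) to 34.3% (chromosome 1) of the fibroblast 5hmC peaks were lost. Both sex chromosomes had larger shares. On chromosome X 148 of 297 peaks were lost, or 49.8% (44.2 to 55.5), and on chromosome Y 35 of 70, against 29.5% (29.1 to 30.0) of the autosomal peaks. None of the 3 mitochondrial peaks was lost. With a fibroblast 5hmC score of at least 100, 40.0% of the X peaks (31.8 to 48.8) and 11.9% of the autosomal peaks (11.4 to 12.4) were lost, so the gap was also there among the stronger peaks. These shares follow from the rule and describe the members only.

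The 5mC of lost peaks on the sex chromosomes went another way than on the autosomes. Of the 148 lost X peaks, 46 lay on fibroblast 5mC (31.1%, 24.2 to 38.9), 16 on day-3 5mC (10.8%, 6.76 to 16.8) and 33 on iPS 5mC (22.3%, 16.3 to 29.7). Of the 35 lost Y peaks, 15 lay on fibroblast, 2 on day-3 and 13 on iPS 5mC. Of the 12389 autosomal lost peaks, 10.3% lay on fibroblast, 18.9% on day-3 and 11.4% on iPS 5mC. Day 3 was thus the lowest stage on X and Y and the highest on the autosomes. On Y this was not particular to lost peaks. The 35 other Y peaks were also lowest at day 3, with 97.1%, 85.7% and 97.1% on the 3 lists. Of the other X peaks, 27.5% lay on fibroblast 5mC. At day 3 the difference on X was -32.1 points (-41.1 to -22.4), since 43.0% of the 149 other X peaks lay on 5mC there. With 5mC lists of equal length, the X shares of lost peaks were 18.9%, 1.35% and 22.3%, and the autosomal ones 4.96%, 4.47% and 11.4%. Day 3 was then the lowest stage on the autosomes too.

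**Figure D5:**
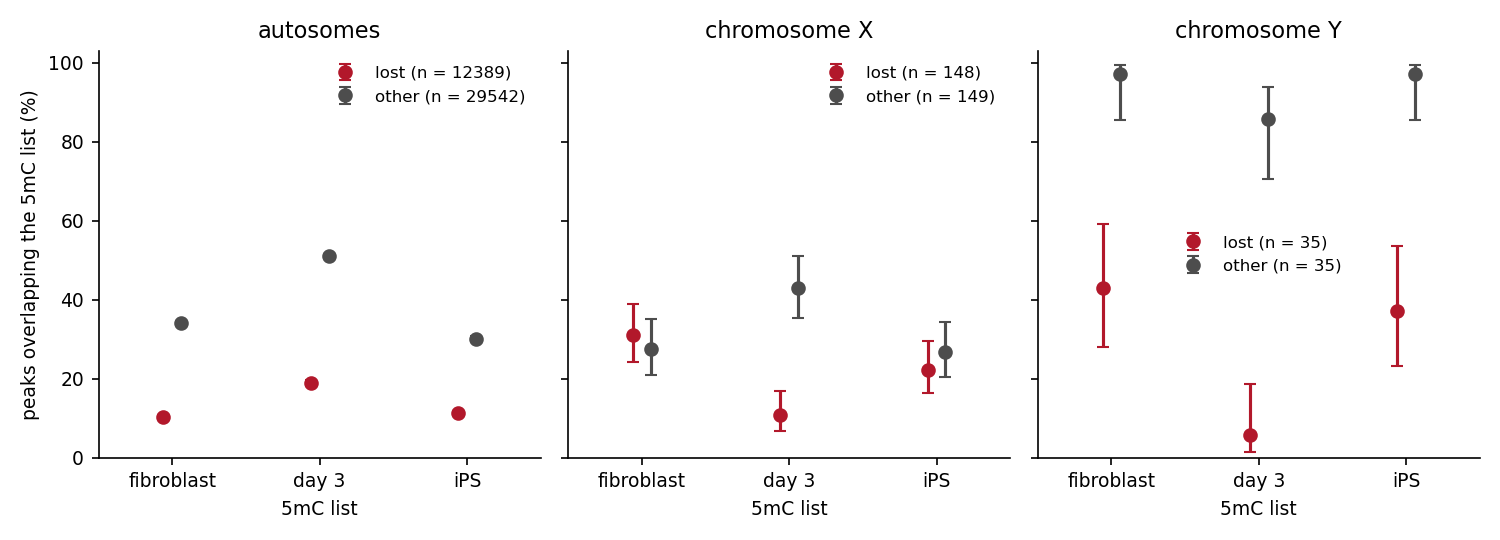
Share of peaks on each 5mC list (y axis, %) for lost and other fibroblast 5hmC peaks on autosomes, chromosome X and chromosome Y (x axis, 5mC list), with 95% Wilson intervals for counting error. On X and Y the lost peaks have their lowest share at day 3 (10.8% and 5.71%), and on autosomes their highest (18.9%). The other peaks on Y are lowest at day 3 too (85.7%).

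The strongest lost peaks were unlike the bulk of the members in that most of them were on 5mC. Coordinates are on mm9 and are counted from 1. The highest-scoring lost peak, chr4:3007044-3011855, was also the widest (4812 bp, score 1199.15). It is the peak nearest to the start of the chromosome in the 6 lists, was overlapped by 2 5mC peaks in each of the 3 lists, and had its nearest later 5hmC peaks 4.61 kb away in both lists. The next, chr3:25454050-25456623 (2574 bp, score 602.91), was covered to 93.3% by a fibroblast 5mC peak, to 35.7% by a day-3 one and to 86.1% by an iPS one. The same order was found at chrX:121214169-121216467 (2299 bp, score 399.46), with 99.6%, 23.7% and 95.4% covered. The other top scorers, chr6:29698219-29699238 (score 468.54) and chr17:13498670-13499253 (score 424.34), lay on fibroblast and iPS 5mC and on no day-3 5mC peak. At the chr4 peak the overlap given was 81.2%, 45.5% and 59.4% on fibroblast, day-3 and iPS 5mC. So the overlap was smallest in the day-3 list at each of these 5 peaks. Such an overlap is an extent of listed peaks and not an amount of 5mC. Among the 157 lost peaks with a score of at least 200, 28.7% lay on fibroblast 5mC, 32.5% on day-3 and 36.3% on iPS 5mC. On no list lay 47.1%, and 8.92% lay on the fibroblast and iPS lists without day 3, where 0.787% of all lost peaks did. More 5mC at high scores was not particular to lost peaks. Of the 6200 other peaks with such scores, 46.0%, 62.6% and 50.5% lay on the 3 lists. On none lay 23.0% of them, where 39.9% of all other peaks did. The fibroblast and iPS lists without day 3 held 2.40% of them, against 1.16% of all other peaks.

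Among the widest lost peaks, chr7:121921109-121923046 (1938 bp) was on 5mC in fibroblasts and at day 3 and not in iPS cells. The peak chr11:58125396-58127291 (1896 bp) was on 5mC in all 3 lists, and its nearest day-3 and iPS 5hmC peaks lay 1.71 and 1.61 kb away. The best-scoring lost peak without 5mC in any list was chr9:120147332-120147844 (513 bp, score 379.74). Its nearest 5mC peaks were 4090, 5840 and 17029 bp away in fibroblasts, day-3 and iPS cells, and the nearest iPS 5hmC peak was 334 bp from it. The best with 5mC at day 3 only was chr9:49621863-49623054 (score 385.24), and the best with 5mC in iPS cells only was chr9:122938490-122939885 (score 363.6). The best with fibroblast 5mC only was chrY:1488409-1488879 (score 213.56), all of whose length lay in a fibroblast 5mC peak. The best on day-3 and iPS 5mC was chr8:11976062-11977296 (score 255.74), which missed a fibroblast 5mC peak by 22 bp. The best on fibroblast and day-3 5mC was chr19:58917235-58918414 (score 273.75).

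The 5 lost peaks farthest from any later 5hmC were chosen for that distance, so long stretches without later 5hmC around them are no result. They lay on no 5mC list, as did 74.2% of all lost peaks. At chr14:3651295-3651801 (score 82.39) the nearest later 5hmC peak was 3818 kb away. The next were chrX:58842032-58842637 at 1400 kb, chr7:92954010-92954685 at 959 kb, and chr4:78318556-78319484 and chr4:77968786-77969468 at 864 and 830 kb. Their scores were between 57.28 and 72.13, where the median of all lost peaks was 67.295.

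Lost peaks fell into 8987 windows of 100 kb, 6369 of which held 1 lost peak and 55 at least 5. The highest number was 7, found in 6 windows, of which the 5 with the best-scoring lost peaks are described. On chromosome 16 from 3200001 to 3300000, all 7 fibroblast 5hmC peaks were lost, and neither later list had a 5hmC peak that began there. In that window 3 of them lay on fibroblast 5mC, 0 on day-3 and 2 on iPS 5mC. On chromosome X from 120100001 to 120200000 and from 121300001 to 121400000, 7 of 10 and 7 of 12 fibroblast peaks were lost, and on chromosome Y from 2400001 to 2500000, 7 of 13. In these 3 windows 3, 6 and 4 of the lost peaks lay on fibroblast 5mC and 1, 3 and 1 on day-3 5mC. The window on chromosome 9 from 120100001 to 120200000 had 7 of 10 peaks lost while 11 iPS 5hmC peaks began in it, and 5 of its lost peaks lay on no 5mC list.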

How the data were processed

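The submitters' processing notes name mm9 as build and, as tools, MACS 1.4.1, Bowtie 0.12.7 and CASAVA 1.8. Per the labels' protocols, 500 ng of adapter-ligated DNA entered each precipitation, followed by 14 to 16 cycles of amplification and selection of 300 to 500 bp. Each deposited list holds the peaks of 1 library with the peak caller's score, from 50 upwards. Whether a control library was used, the caller's settings and the read depth are not stated in the labels, so depth is unknown and peak absence mixes the mark with depth. Peaks were compared at an overlap of 1 bp or more (Python 3.11.15, numpy 2.4.6, pandas 2.3.3, matplotlib 3.10.9). The counts were equal to those of bedtools 2.31.1 for 5 list pairs, and 1440 simulated peaks gave 0 errors. Shares carry 95% Wilson and unweighted differences 95% Newcombe intervals. Weighted differences used 25 strata of score and width or 10 of surrounding 5mC, and a further weighting used score, width and surrounding 5mC together. Their 95% intervals come from a normal approximation over the strata. Named regions were the 5 highest-scoring, 5 widest and 5 most distant lost peaks, the best of each of the 8 combinations of 5mC lists, and the 5 windows of 100 kb with most lost peaks, with ties broken by the best score in the window. Members, comparisons and rules were chosen with earlier results of these data known. The comparison with later 5hmC lists of equal length and the weighting by surrounding 5mC were added after the data were seen. No mm9 sequence or annotation was used here, so no sequence is shown and no peak is assigned to a gene or repeat.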

Additional observations from a re-analysis of the deposited data

Results flagged for a closer look

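From the fibroblast to the iPS 5mC list, the share of lost peaks on 5mC rose by 0.907 points while that of the other fibroblast 5hmC peaks fell by 3.88 points. The opposite directions singled this out, and the difference between them was not tested. It depended on the lists: with 5mC lists of equal length both shares rose, by 6.38 and 7.01 points. With a 5mC score of at least 100 they changed by -0.748 and -5.68 points. With a fibroblast 5hmC score of at least 100 both rose, by 4.84 and 0.704 points. A rise was not particular to lost peaks. In the full lists, peaks found again in iPS cells only changed by 4.33 points. Those kept at day 3 only changed by -8.14 points, and those present at both later stages by -12.6 points.

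From the fibroblast to the day-3 5mC list, the share of lost peaks on 5mC changed by 8.60 points on the autosomes, by -20.3 points on chromosome X and by -37.1 points on chromosome Y, which rests on 35 peaks. The opposite directions singled this out, and the difference was not tested. With 5mC lists of equal length the changes were -0.484, -17.6 and -31.4 points, and with a 5mC score of at least 100 they were 4.90, -14.2 and -28.6 points. In the full lists the share of the other Y peaks changed by -11.4 points, so a fall on Y was not particular to lost peaks.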

How the results depend on the processing

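Of 60 values under other settings, 15 moved by less than the counting interval (for numbers of peaks, 1.5 times) and 45 moved by more. Direction changed in 0 of them, but only the differences could change it, since numbers and shares of peaks are always positive. With 5mC lists of equal length the iPS share and difference stay the same by construction, because the iPS list is the shortest and was used whole. Differences below are lost minus other peaks in points, and lists are in the order fibroblast, day-3 and iPS 5mC. With a fibroblast 5hmC score of at least 100, 2106 peaks were lost, with 15.5%, 23.1% and 20.3% on the lists and 63.9% on none, and a difference of -22.1 in fibroblasts. With an overlap of at least 50% the shares were 9.28% and 16.4% on the fibroblast and day-3 lists and 76.5% on none, and the differences -20.4, -29.6 and -16.5. Without lost peaks within 1000 bp of a later 5hmC peak, 9845 were left, with 9.76%, 16.8% and 9.92%, 76.9% on none, and differences of -24.4, -34.2 and -20.3. With 5mC scores of at least 100 the shares were 3.39%, 7.97% and 2.64%, 89.8% on none, and the differences -15.2, -25.4 and -10.2. With equal 5mC lists they were 5.19% and 4.42% for the first lists, 85.0% on none, with differences of -18.0 and -20.7. Weighting gave -19.8, -28.3 and -11.0 (score and width) and -16.1, -23.9 and -13.6 (surrounding 5mC). Against later 5hmC lists of equal length 30011 peaks were lost, with 17.6%, 31.2% and 17.8%, 60.7% on none, and differences of -33.0, -35.4 and -23.7. Higher score minimums and shorter 5mC lists remove peaks by construction, and shorter later 5hmC lists add lost peaks by construction. For the rest the cause was not tested. No paired analysis was possible because the groups hold 1 library each, and for the same reason no replicate could be left out.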

Other observations

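Neighbouring fibroblast 5hmC peaks tended to share the loss, which is a description since the rule chose these peaks. After a lost peak, the next fibroblast 5hmC peak along the chromosome was lost in 37.3% of 12564 cases (36.5 to 38.2), and after a kept peak in 26.5% of 29715 cases (26.0 to 27.0). For neighbours at most 10 kb apart the shares were 33.9% and 21.9%, and for neighbours more than 100 kb apart 47.6% and 39.1%. Of the 6405 windows of 100 kb with at least 3 fibroblast 5hmC peaks, 131 had lost them all. No reference number was worked out for this, so the count says nothing about clustering.

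5mC and score both went with loss. Among fibroblast 5hmC peaks on no 5mC list, 62.7% were lost in the lowest of 5 equal score groups and 8.54% in the highest. Among those on all 3 5mC lists, the shares were 17.1% and 1.74%. The lost peaks on fibroblast and iPS 5mC but not on day-3 5mC had a median score of 92.29, the highest of the 8 combinations. Of these peaks, 18 lay on chromosome X and 9 on Y. They made up 12.2% of the lost X and 25.7% of the lost Y peaks, against 0.581% of the autosomal ones. Lost X and Y peaks had median scores of 78.16 and 95.74, against 67.14 on the autosomes. Lost peaks on no 5mC list had the lowest median score of the 8 combinations, 65.84.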
